A study of Mus musculus with 4 samples.

Results

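Expression of 10 antioxidant and metallothionein genes (Nfe2l2, Hmox1, Nqo1, Gclm, Txnrd1, Sod2, Sod3, Gpx3, Mt1 and Mt2) was compared between Mmp3-positive and Mmp3-negative cells of mouse subcutaneous fat. The genes were taken by name, and all 10 were found among the 35580 genes with listed transcripts. RNA sequencing had been done on 2 libraries of Mmp3-positive and 2 of Mmp3-negative cells. The cells were those of the stromal vascular fraction, which holds the cells of adipose tissue other than adipocytes. All 4 libraries came from C57BL/6 mice of WT genotype. They were numbered Set1 and Set2 in each group, called replicates 1 and 2 here. Mmp3 encodes stromelysin-1, a secreted matrix protease. Cells of both groups were defined with a reagent known only by a code, and RNA of both was extracted with a kit for formalin-fixed tissue and made into strand-specific libraries depleted of ribosomal RNA. The sources used here give no age, sex, number of animals or pooling, so p-values measure the spread between these libraries, which may be technical.

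NRF2, the protein product of Nfe2l2, is a transcription factor that is held at a low level by its partner KEAP1 and accumulates when cells meet oxidants or electrophiles. It then binds antioxidant response elements of genes for haem breakdown (Hmox1), quinone reduction (Nqo1), glutathione synthesis (Gclm) and thioredoxin reduction (Txnrd1). Superoxide dismutases turn superoxide into hydrogen peroxide, in mitochondria (Sod2) and outside the cell (Sod3), and the secreted glutathione peroxidase Gpx3 reduces peroxides. The metallothioneins Mt1 and Mt2 are small cysteine-rich proteins that bind zinc and copper. Their genes are switched on by the zinc sensor MTF1 through metal response elements.

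The promoters of Mt1 and Mt2 are shown because the genes are neighbours under the same kind of control and their expression values are set side by side below. RefSeq promoter windows on GRCm38.p6 were matched for 8 of the 10 genes, and Hmox1 and Sod3 were not matched. Each window held 250 bases before the transcript start and 30 bases from it, and capitals mark the metal response element core, searched as TGCACNC or TGCGCNC on both strands. Mt1 lies at chr8:94178839-94179118 and Mt2 at chr8:94172368-94172647, both on the plus strand.
Mt1 promoter: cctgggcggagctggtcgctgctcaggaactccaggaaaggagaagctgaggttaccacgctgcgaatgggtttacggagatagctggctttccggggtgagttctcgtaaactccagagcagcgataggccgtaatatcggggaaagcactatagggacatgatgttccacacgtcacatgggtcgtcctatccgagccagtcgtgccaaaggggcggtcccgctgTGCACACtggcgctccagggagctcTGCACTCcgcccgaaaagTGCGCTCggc
Mt2 promoter: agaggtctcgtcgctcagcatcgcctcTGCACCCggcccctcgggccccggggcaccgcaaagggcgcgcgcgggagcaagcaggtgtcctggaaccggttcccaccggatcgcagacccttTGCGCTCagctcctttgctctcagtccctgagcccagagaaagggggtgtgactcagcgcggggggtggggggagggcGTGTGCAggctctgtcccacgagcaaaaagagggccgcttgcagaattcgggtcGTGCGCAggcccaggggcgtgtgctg
The Mt1 window held 3 matches, beginning at positions -23, 3 and 21 from the RefSeq start, and the Mt2 window held 4, at -223, -128, -50 and 5. In the GENCODE annotation used for expression, Mt2 begins at 94172664, beyond the end of its window, and Mt1 at 94179082, inside its window. The positions and numbers of matches therefore hold for the RefSeq starts only. Of 32817 mouse promoter windows, 24.1% held at least 1 match, 1.73% held 3 or more and 0.405% held 4 or more. Gclm had 2 matches, and Nfe2l2, Nqo1, Txnrd1, Sod2 and Gpx3 had 0 in these windows. The antioxidant response element core, searched as TGACNNNGC on both strands, was found once in each of Nfe2l2, Gclm and Mt2 and in 1 of the 3 Txnrd1 windows, against 11.5% of all windows. The Mt2 match, at position -79, overlapped a match to the AP-1 element TGAGTCA, which 4.95% of all windows held. A match describes the letters and is not evidence of binding.

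The coding sequences of Mt1 and Mt2 are shown because their likeness bears on how reads could be divided between the genes. They are those of GENCODE M21 transcripts Mt1-201 and Mt2-201 without the stop codon, and capitals mark the 38 of 183 bases that differ.
Mt1 coding: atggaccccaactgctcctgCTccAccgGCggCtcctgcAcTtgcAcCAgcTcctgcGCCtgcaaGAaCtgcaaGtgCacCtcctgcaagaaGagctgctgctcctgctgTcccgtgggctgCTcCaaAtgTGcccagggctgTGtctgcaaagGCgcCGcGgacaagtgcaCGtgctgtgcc
Mt2 coding: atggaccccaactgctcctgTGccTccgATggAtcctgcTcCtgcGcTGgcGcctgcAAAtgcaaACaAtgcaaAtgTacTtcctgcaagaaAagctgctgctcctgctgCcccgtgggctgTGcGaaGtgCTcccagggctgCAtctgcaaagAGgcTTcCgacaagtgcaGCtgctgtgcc
The sequences were 79.2% identical, and the longest identical run was 20 bases. Over the whole transcripts Mt1 and Mt2 shared 0 words of 31 bases, so a read that covers such a word of one gene does not match the other. The other ambiguity of Mt2 is its strand. Gm45774, an antisense gene that is not among the listed transcripts, covers 57.6% of the 31-base words of Mt2. The libraries were strand-specific, but the sources used here do not give the strand setting of the quantification, so reads from the antisense gene could not be told apart from Mt2 if strand was ignored. For Nfe2l2, Hmox1, Nqo1, Txnrd1 and Mt1, 0 words were shared with transcripts of other genes. For Sod2, 22.5% of words were shared with listed transcripts of other genes and for Gclm 5.85%, with 0.552% or less for Sod3, Gpx3 and Mt2.

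The libraries held between 17693755 and 20286221 estimated counts. Mmp3 checked the labels, at 4161 and 3409 CPM in the Mmp3-positive and 106 and 131 CPM in the Mmp3-negative libraries, where CPM is the estimated count scaled to library size with TMM factors. Among 14185 genes tested with edgeR's quasi-likelihood test, 1 was higher and 2 were lower in Mmp3-positive cells at an adjusted p under 0.05. Markers of other cells were unequal between the groups. The summed level of 8 mural markers was 98.2 and 94.0 CPM in Mmp3-positive and 723 and 590 CPM in Mmp3-negative libraries, that of 8 macrophage markers 30.6 and 28.5 against 247 and 117 CPM, and that of 8 endothelial markers 224 and 217 against 394 and 264 CPM. Adgre1, a defining macrophage gene, was at 0 counts in both Mmp3-positive libraries. Mrc1, of the same macrophage list, went the other way and was at 0 counts in both Mmp3-negative libraries. Of the endothelial list, Cldn5 was at 0 counts in both Mmp3-positive and Emcn at 0 in both Mmp3-negative libraries. The endothelial median log2 fold change was -0.71. Without Mmp3-negative replicate 1 that median was 0.078, in a fit whose median over all genes was 0.17. The 10 stromal fibroblast markers summed to 25391 and 31737 CPM in Mmp3-positive against 17835 and 25121 CPM in Mmp3-negative libraries. The part of these cell types in the values below was not tested, and in such bulk samples fewer cells of a type and less RNA per cell cannot be told apart.

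Of the 10 genes, 0 passed the threshold in either direction, and Gpx3 came nearest, 1.94-fold higher in Mmp3-positive cells. Of all tested genes 0.0211% passed, 0.00705% as higher and 0.0141% as lower. Their edgeR adjusted p-values lay between 0.480 and 0.999. At an unadjusted p under 0.05 there was 1 gene, Gpx3, which was higher, beside 8.87% of all tested genes in either direction, 5.62% as higher and 3.25% as lower. The DESeq2 Wald test called 1 of the 10, again Gpx3, and 9.64% of all tested genes. Fitted log2 fold changes were above 0 for 6 genes and below 0 for 4, with a median of 0.18, beside 0.02 over all genes tested. In 4 genes (Nfe2l2, Hmox1, Sod3 and Gpx3) both Mmp3-positive libraries were above both Mmp3-negative libraries, and in 0 genes were both below. Among all tested genes 22.5% lay all above and 17.3% all below. With 2 libraries against 2, an exact two-sided permutation test of a single gene cannot give a p below 0.333, so separation of the groups alone cannot pass the threshold.

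**Figure D1:**
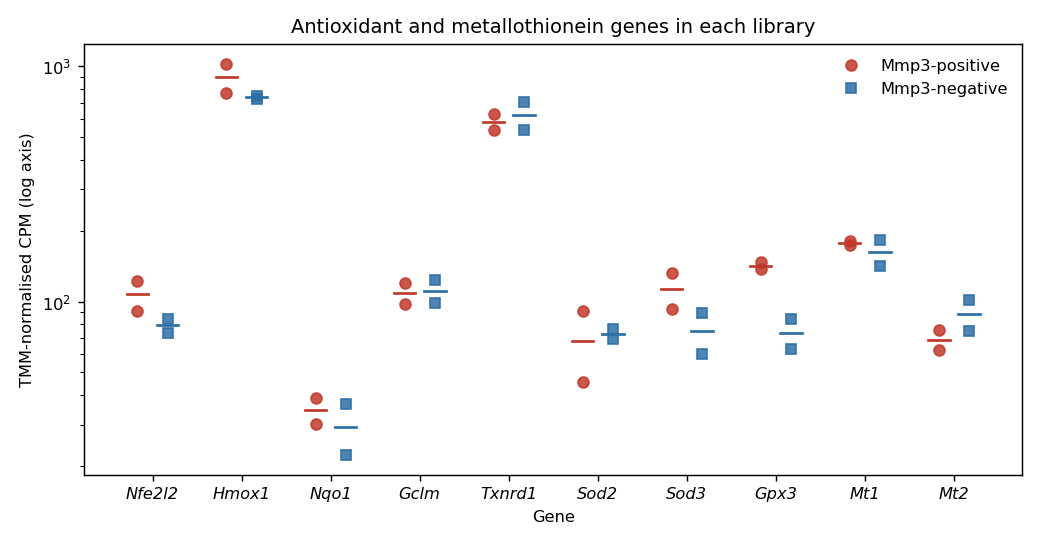
TMM-normalised CPM (log axis) of each gene in each library, with Mmp3-positive libraries as circles and Mmp3-negative libraries as squares; short lines are group means (n = 2). The groups are apart for Nfe2l2, Hmox1, Sod3 and Gpx3, with Gpx3 at 137 and 147 CPM in Mmp3-positive and 62.8 and 84.1 CPM in Mmp3-negative libraries, and overlap for the other 6 genes.

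Nfe2l2, the gene of the regulator itself (ENSMUSG00000015839, chromosome 2, 75675513 to 75704641 on GRCm38), stood at 123 and 91.6 CPM in the Mmp3-positive libraries and at 84.8 and 73.9 CPM in the Mmp3-negative libraries. The groups did not overlap, but the lower Mmp3-positive library lay close to the higher Mmp3-negative one. The means were 107 ± 22.1 CPM in Mmp3-positive and 79.4 ± 7.70 CPM in Mmp3-negative cells (SD, n = 2 each), with a log2 fold change of 0.43, a standard error of 0.26 and a 95% interval from -0.22 to 1.09 (edgeR adjusted p = 0.817). Without Mmp3-positive replicate 1 that log2 fold change was 0.21, and without Mmp3-positive replicate 2 it was 0.63. Nearly all of its counts lay on the coding transcript Nfe2l2-201, between 92.7% and 100% by library.

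Hmox1 encodes haem oxygenase 1, which breaks haem down to biliverdin, iron and carbon monoxide (ENSMUSG00000005413, chromosome 8, 75093621 to 75100589). It was the most abundant of the 10 genes per transcript length, ranking 100 among 18295 genes by mean TPM, a length-scaled share of transcripts, over the 4 libraries. On the CPM scale it stood at 772 and 1028 in the Mmp3-positive libraries and at 750 and 728 in the Mmp3-negative libraries. One Mmp3-positive library was well above the other 3, which were close together. The fold change was 1.22 with a 95% interval from 0.890 to 1.67 (edgeR adjusted p = 0.853). Without Mmp3-positive replicate 2 the log2 fold change was 0.06, against 0.28 with all 4 libraries. Macrophages are a known source of haem oxygenase 1, and their summed markers were at 30.6 and 28.5 CPM in Mmp3-positive and at 247 and 117 CPM in Mmp3-negative libraries. Their part in the Hmox1 values was not tested.

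Nqo1, the cytosolic quinone reductase (ENSMUSG00000003849, chromosome 8, 107388225 to 107403206), had the lowest CPM of the 10 genes. Its levels were 30.3 and 38.9 CPM in Mmp3-positive and 36.6 and 22.3 CPM in Mmp3-negative libraries. The groups overlapped, and the 95% interval of the fold change ran from 0.513 to 2.69. A log2 fold change of 0.23 was fitted (edgeR adjusted p = 0.999), and it was -0.080 without Mmp3-negative replicate 2.

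Gclm, the modifier subunit of the enzyme that makes the first step of glutathione synthesis (ENSMUSG00000028124, chromosome 3, 122245557 to 122270732), stood at 97.4 and 120 CPM in Mmp3-positive and at 124 and 98.8 CPM in Mmp3-negative libraries. Each group spanned nearly the same range. Its log2 fold change was -0.03 with a standard error of 0.25 and a fold interval from 0.638 to 1.49 (edgeR adjusted p = 0.999). It was 0.11 without Mmp3-positive replicate 1, 0.13 without Mmp3-negative replicate 1 and 0.16 with limma on log2(TPM + 1), so no direction can be given. In those fits the median over all genes was itself -0.056, 0.17 and 0.29. The catalytic partner Gclc stood at 112 ± 13.7 CPM in Mmp3-positive and 127 ± 16.5 CPM in Mmp3-negative cells.

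Txnrd1, the cytosolic thioredoxin reductase (ENSMUSG00000020250, chromosome 10, 82833951 to 82897712), was the other abundant NRF2 target, at 538 and 626 CPM in Mmp3-positive and 536 and 706 CPM in Mmp3-negative libraries. The Mmp3-positive values lay inside the range of the Mmp3-negative ones. A log2 fold change of -0.09 was fitted, with a standard error of 0.19, and the fold interval, from 0.672 to 1.31, lay within 2-fold in either direction (edgeR adjusted p = 0.999). Its sign turned without Mmp3-positive replicate 1 (0.01), without Mmp3-negative replicate 2 (0.12) and with limma on log2(TPM + 1) (0.01). In those fits the median over all genes was itself -0.056, 0.17 and 0.29.

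Sod2, the manganese superoxide dismutase of mitochondria (ENSMUSG00000006818, chromosome 17, 13006846 to 13040063), was the least repeatable of the 10 genes among Mmp3-positive libraries, at 90.9 and 45.7 CPM, a 1.99-fold difference within the group. The Mmp3-negative libraries stood between these values, at 76.4 and 69.1 CPM. Its log2 fold change was -0.09 with a 95% interval from -1.05 to 0.87 (edgeR adjusted p = 0.999). It was 0.32 without Mmp3-positive replicate 2 and -0.67 without Mmp3-positive replicate 1, so its direction rests on which of those libraries is kept. Its size also moved with the handling of transcript length. It was -0.64 once effective length entered as an offset and -0.55 by limma on log2(TPM + 1), where the median over all genes was 0.29. Sod2 is an NF-kB target, and the summed level of 11 genes that respond to NF-kB differed within both groups. That sum was 2250 and 1490 CPM in Mmp3-positive and 2002 and 1300 CPM in Mmp3-negative libraries. Sod2 itself differed by 1.99-fold within the Mmp3-positive but by 1.11-fold within the Mmp3-negative libraries. The part of NF-kB in the Sod2 values was not tested.

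Sod3, the secreted superoxide dismutase that binds the extracellular matrix (ENSMUSG00000072941, chromosome 5, 52363791 to 52371418), stood at 132 and 93.0 CPM in Mmp3-positive and at 89.8 and 60.0 CPM in Mmp3-negative libraries. The groups were apart by a narrow margin, and the libraries of each group differed by 1.42-fold among Mmp3-positive and 1.495-fold among Mmp3-negative. The fold change was 1.504 with a 95% interval from 0.870 to 2.60 (log2 fold change 0.59, edgeR adjusted p = 0.753). It ran from 0.31 to 0.90 on the log2 scale when each library was left out in turn. Vascular smooth muscle is a known source of Sod3, and the summed mural markers stood at 98.2 and 94.0 CPM in Mmp3-positive and 723 and 590 CPM in Mmp3-negative libraries. Their part in the Sod3 values was not tested.

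Gpx3, the secreted glutathione peroxidase (ENSMUSG00000018339, chromosome 11, 54902453 to 54910377), had the widest separation of the 10 genes. It stood at 137 and 147 CPM in the Mmp3-positive libraries and at 62.8 and 84.1 CPM in the Mmp3-negative libraries. Its means were 142 ± 6.70 CPM in Mmp3-positive and 73.4 ± 15.0 CPM in Mmp3-negative cells (SD, n = 2 each). The log2 fold change was 0.95 with a standard error of 0.25, a fold of 1.94 with a 95% interval from 1.26 to 2.97. It ranked 178 by p among the genes tested (edgeR unadjusted p = 0.00953) and did not pass after adjustment (edgeR adjusted p = 0.480). The DESeq2 Wald test called it higher (log2 fold change 0.91, DESeq2 adjusted p = 0.00316), in a fit that called 5.46% of all tested genes higher. The adjusted p ran from 0.00316 to 0.9999 over the alternatives, and the log2 fold change from 0.75 to 1.24. Summed adipocyte markers were at 154 and 125 CPM in Mmp3-positive and 156 and 98.1 CPM in Mmp3-negative libraries. Most of that sum was Lpl, at 123 and 88.6 CPM against 117 and 65.7 CPM. Plin1, Fabp4 and Pparg had counts in all 4 libraries, Adipoq in Mmp3-positive replicate 1 alone, and Lep and Cidec in none, and the part of adipocyte RNA in the Gpx3 values was not tested.

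Gpx3 and Txnrd1 are both selenoproteins, in which a UGA codon inside the reading frame is read as selenocysteine at the active site. That codon is shown, in capitals as TGA, for the coding strand of GENCODE M21 transcripts Gpx3-201 and Txnrd1-208.
Gpx3 codon 73: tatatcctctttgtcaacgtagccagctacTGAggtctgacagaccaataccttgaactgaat
Txnrd1 codon 498: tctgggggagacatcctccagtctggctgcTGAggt
In Gpx3 the codon lay well inside the 226 codons of the reading frame, and in Txnrd1 it was the last codon but one of 499. The genes shared this codon but not their values, since Gpx3 had a log2 fold change of 0.95 and Txnrd1 one of -0.09, a difference between genes that was not tested. Among 11 genes of selenoprotein synthesis and other selenoproteins 0 passed in either direction, and the median log2 fold change was 0.04. Selenow, a small selenoprotein abundant in muscle, stood at 177 ± 10.3 CPM in Mmp3-positive and 141 ± 17.2 CPM in Mmp3-negative cells. Secisbp2, which binds the selenocysteine insertion element of messenger RNAs, stood at 114 ± 14.6 against 110 ± 5.42 CPM, and Selenok, a protein of the endoplasmic reticulum, at 14.9 ± 5.11 against 6.86 ± 7.26 CPM. That median was -0.0023 with DESeq2 size factors and -0.072 without Mmp3-positive replicate 1, so no direction is given for it.

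**Figure D2:**
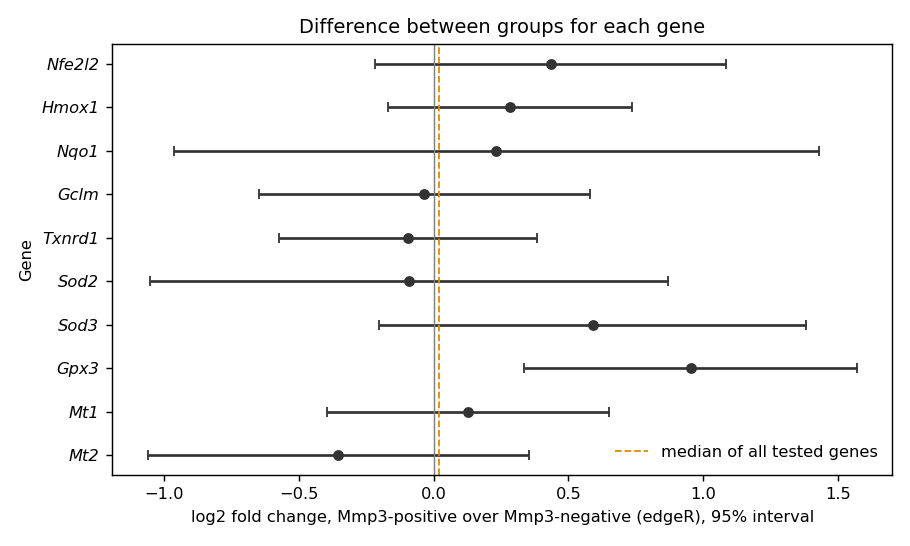
Log2 fold change of each gene (Mmp3-positive over Mmp3-negative, edgeR), with bars giving the 95% interval; the dashed line is the median of all 14185 genes tested, 0.02. The interval covers 0 for 9 of the 10 genes and lies above 0 for Gpx3, from 0.34 to 1.57.

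Mt1 (ENSMUSG00000031765, chromosome 8, 94179082 to 94180327) was the most abundant metallothionein, at 181 and 174 CPM in the Mmp3-positive and 183 and 142 CPM in the Mmp3-negative libraries. Mt2 (ENSMUSG00000031762, chromosome 8, 94172664 to 94173568) stood at 62.4 and 75.7 CPM in the Mmp3-positive and 101 and 75.1 CPM in the Mmp3-negative libraries. Both genes overlapped between groups. The log2 fold change of Mt1 was 0.13 with a fold interval from 0.760 to 1.57 (edgeR adjusted p = 0.999), and it was -0.046 without Mmp3-negative replicate 2. That of Mt2 was -0.35 with a fold interval from 0.479 to 1.28 (edgeR adjusted p = 0.929), and it was -0.13 without Mmp3-negative replicate 1 and -0.55 without Mmp3-negative replicate 2. The genes lie next to each other and both promoters above hold several metal response element cores. Summed, they stood at 243 and 250 CPM in Mmp3-positive and at 285 and 217 CPM in Mmp3-negative libraries, with the Mmp3-positive values inside the range of the Mmp3-negative ones. The ratio of Mt2 to Mt1 estimated counts, looked at after the values were seen, was 0.345 and 0.435 in the Mmp3-positive and 0.553 and 0.530 in the Mmp3-negative libraries. The ratio was lower in both Mmp3-positive libraries, which is a description with no test.

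Genes of zinc and copper handling that surround the metallothioneins gave 0 calls in either direction among 14 of 15 tested, with a median log2 fold change of 0.11. That median was 0.57 without Mmp3-negative replicate 2, 0.29 without Mmp3-positive replicate 2 and 0.54 by limma on log2(TPM + 1). Over all genes the median was 0.17, -0.025 and 0.29 in the same fits. Mt3, the metallothionein known from brain, had too few counts to be tested. The zinc importers taken for their abundance were Slc39a14, at 327 ± 117 CPM in Mmp3-positive and 216 ± 6.59 CPM in Mmp3-negative cells, Slc39a7, at 404 ± 34.8 against 312 ± 72.3 CPM, and Slc39a1, at 214 ± 20.2 against 119 ± 10.6 CPM. Slc39a1 had a log2 fold change of 0.85 (edgeR unadjusted p = 0.00588, adjusted p = 0.480). The copper chaperone Atox1, named after its values were seen, stood at 32.6 ± 14.1 against 6.05 ± 1.15 CPM (edgeR adjusted p = 0.480). Mtf1, the zinc sensor, and Slc30a1, a zinc exporter it controls, were also named after their values were seen. Mtf1 stood at 35.8 ± 2.63 against 30.1 ± 26.2 CPM and Slc30a1 at 8.21 ± 0.888 against 18.7 ± 1.59 CPM, and neither passed (edgeR adjusted p = 0.999 and 0.907).

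Metallothioneins also respond to glucocorticoids. Among 9 glucocorticoid-responsive genes 0 passed in either direction, and the median log2 fold change was 0.21, or -0.08 without Mmp3-positive replicate 1 and -0.20 without Mmp3-negative replicate 1. Errfi1, a feedback inhibitor of the EGF receptor, stood at 655 ± 46.5 CPM in Mmp3-positive and 523 ± 30.6 CPM in Mmp3-negative cells, and Fkbp5, a chaperone of the glucocorticoid receptor, at 63.2 ± 3.68 against 53.6 ± 26.7 CPM. Dusp1, a phosphatase that switches off stress kinases, stood at 113 ± 18.6 against 206 ± 12.3 CPM (edgeR adjusted p = 0.480). At an unadjusted p under 0.05 there were 3 genes, all with lower values in Mmp3-positive cells, Dusp1, Per1 and Zbtb16, of which Per1 and Zbtb16 were named after their values were seen. Among all tested genes 3.25% were lower at that unadjusted p.

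The wider NRF2 system held 0 genes past the threshold. Among 8 genes that control NRF2 the median log2 fold change was -0.11. It turned to 0.09 once effective length entered as an offset and to 0.37 by limma on log2(TPM + 1). The median over all genes was itself 0.0065 and 0.29 in those fits. Sqstm1, an autophagy receptor that sequesters KEAP1, stood at 654 ± 6.45 CPM in Mmp3-positive and 683 ± 74.2 CPM in Mmp3-negative cells, and Mafg, a small DNA-binding partner of NRF2, at 341 ± 51.4 against 342 ± 36.9 CPM. Nfe2l1, a relative of NRF2 that controls proteasome genes, stood at 499 ± 18.7 against 375 ± 40.0 CPM (edgeR unadjusted p = 0.0438, adjusted p = 0.526). Among 20 other NRF2 targets the median log2 fold change was 0.24, with 15 above 0 and 5 below, against 7251 above and 6934 below among all genes tested. It was 0.12 once effective length entered as an offset and 0.16 without Mmp3-positive replicate 1. Ftl1 and Fth1, the subunits of the iron store ferritin, stood at 1320 ± 10.98 against 1193 ± 150 CPM and 454 ± 36.5 against 507 ± 17.8 CPM. Srxn1, which repairs overoxidised peroxiredoxins, stood at 278 ± 20.5 against 228 ± 55.8 CPM. Ferritin also belongs to the list of 10 haem and iron genes, of which 9 were tested and 0 passed, with a median of -0.23. This median was -0.036 without Mmp3-negative replicate 1, -0.42 without Mmp3-positive replicate 1 and -0.85 once effective length entered as an offset. In that list Blvrb, a biliverdin reductase that acts after haem oxygenase, stood at 79.9 ± 14.0 against 93.9 ± 13.0 CPM.

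Other enzymes that remove superoxide and peroxides numbered 17, and 0 passed. Their median log2 fold change was 0.62, the highest of the lists described here, with 12 members above 0 and 5 below. Over the alternatives it ran from 0.16, without Mmp3-positive replicate 2, to 0.89, by limma on log2(TPM + 1). The median over all genes was itself -0.025 and 0.29 in those fits. Prdx5 and Prdx6 are peroxiredoxins, and they stood at 236 ± 20.7 against 238 ± 36.6 CPM and at 348 ± 5.75 against 240 ± 75.5 CPM in Mmp3-positive against Mmp3-negative cells. Gpx4, which reduces lipid peroxides, stood at 71.7 ± 10.8 against 57.3 ± 7.83 CPM. The members at an unadjusted p under 0.05 were Sod1, the cytosolic superoxide dismutase, and Cat, catalase, both named after their values were seen. Both were higher in Mmp3-positive cells, beside 5.62% of all tested genes that were higher at that unadjusted p. Sod1 stood at 72.1 ± 10.2 against 36.5 ± 0.609 CPM (log2 fold change 0.98, edgeR adjusted p = 0.480) and Cat at 101 ± 24.3 against 58.1 ± 13.0 CPM (0.79, edgeR adjusted p = 0.542). The 3 superoxide dismutases therefore had log2 fold changes of 0.98 for Sod1, 0.59 for Sod3 and -0.09 for Sod2, none past the threshold and with the differences among them not tested.

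NF-kB-responsive genes, relatives of Sod2 by their control, also held 0 genes past the threshold among 11, with a median log2 fold change of 0.18 that was -0.27 without Mmp3-positive replicate 1 and -0.28 without Mmp3-negative replicate 2. The chemokines Ccl2 and Cxcl1 stood at 514 ± 195 against 361 ± 164 CPM and at 292 ± 146 against 258 ± 136 CPM in Mmp3-positive against Mmp3-negative cells, and the NF-kB inhibitor gene Nfkbia at 379 ± 16.3 against 318 ± 84.9 CPM. The exception among stress genes was the list of 14 immediate early and heat shock genes, of which 2, Hspa1a and Hspa1b, passed as lower, with a median of -1.41. These encode the stress-induced chaperone HSP70, and they stood at 381 ± 37.4 against 2534 ± 186 CPM (Hspa1a, edgeR adjusted p = 0.0250) and at 457 ± 3.44 against 2459 ± 278 CPM (Hspa1b, edgeR adjusted p = 0.0273) in Mmp3-positive against Mmp3-negative cells. Hspa1a and Hspa1b are near-identical copies, so the division of reads between them is uncertain. Both calls were lost with the length offset (edgeR adjusted p = 0.108 for Hspa1a and 0.125 for Hspa1b), by limma on log2(TPM + 1) (0.545 for both), without Mmp3-positive replicate 1 (0.0516 and 0.0759) and without Mmp3-positive replicate 2 (0.0655 and 0.118). Their log2 fold changes stayed at -2.12 or below in all of the alternatives. That list was known to be lower from earlier results of these data. Its summed level was 3615 and 3697 CPM in Mmp3-positive and 9527 and 9207 CPM in Mmp3-negative libraries, where the 10 antioxidant and metallothionein genes summed to 2164 and 2439 CPM and 2044 and 2059 CPM.

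**Figure D3:**
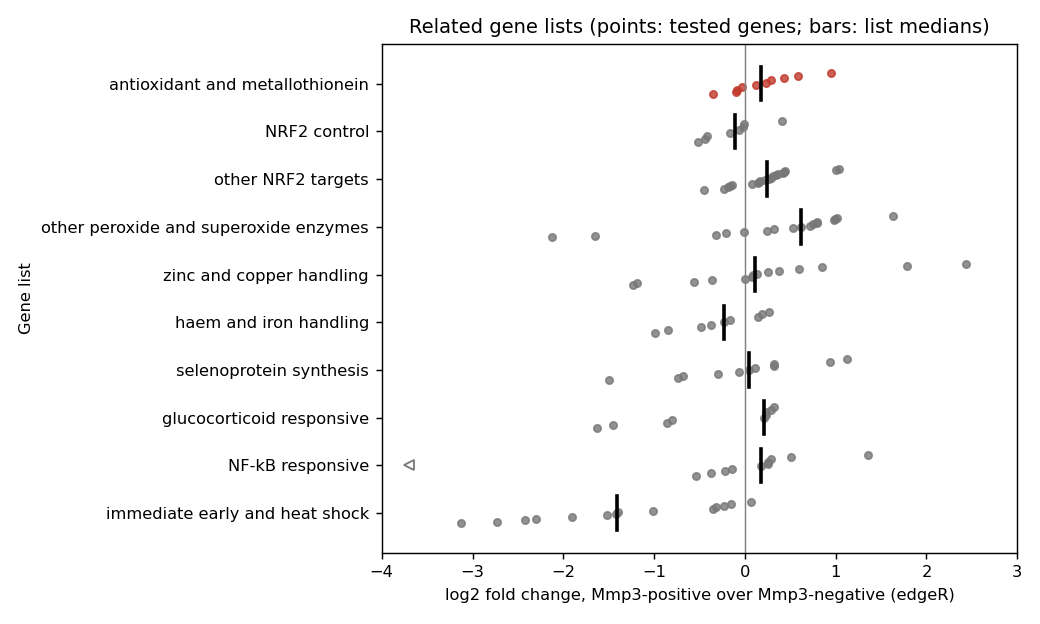
Log2 fold changes (Mmp3-positive over Mmp3-negative, edgeR) of the tested genes of each list as points, with the list median as a vertical bar; the open triangle stands for Tnf, at 0 counts in both Mmp3-positive libraries, whose fold is not drawn to scale. The 10 antioxidant and metallothionein genes lie between -0.35 and 0.95 with a median of 0.18, and the immediate early and heat shock list has its median at -1.41.

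Within a library, levels of different genes were compared per transcript length as TPM. Hmox1 had 766 and 909 TPM in the Mmp3-positive and 432 and 687 TPM in the Mmp3-negative libraries, and it led the 10 genes in every library except Mmp3-negative replicate 2, where Txnrd1 led with 737 TPM. Txnrd1 otherwise had 539 and 554 TPM in the Mmp3-positive libraries and 399 TPM in Mmp3-negative replicate 1. Mt1 followed them in 3 libraries and was next to Hmox1 in Mmp3-positive replicate 1, with 594 and 517 TPM in Mmp3-positive and 336 and 467 TPM in Mmp3-negative libraries. Mt2 and Gclm followed in all 4 libraries, between 206 and 422 TPM. Gpx3, Sod2, Nfe2l2, Sod3 and Nqo1 made up the lower group, from 18.9 to 124 TPM, and Sod3 and Nqo1 were the lowest of the 10 in all 4 libraries. The order among neighbours in this ranking was not the same in every library.

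TPM values do not compare well between these libraries. A set of 3 transcripts was picked as those with the highest TPM in Mmp3-negative replicate 1, the top one 226 bases long. The set took 15.0% and 23.2% of all TPM in the Mmp3-positive and 49.7% and 8.10% in the Mmp3-negative libraries. Its choice from Mmp3-negative replicate 1 favours a high share there, and that share lowers all other TPM values of this library. With limma on log2(TPM + 1) the median log2 fold change over all genes was 0.29, against 0.02 with CPM, and 0 of the 10 genes passed. For 4 genes the TPM also rested on how counts were divided among transcripts.

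**Figure D4:**
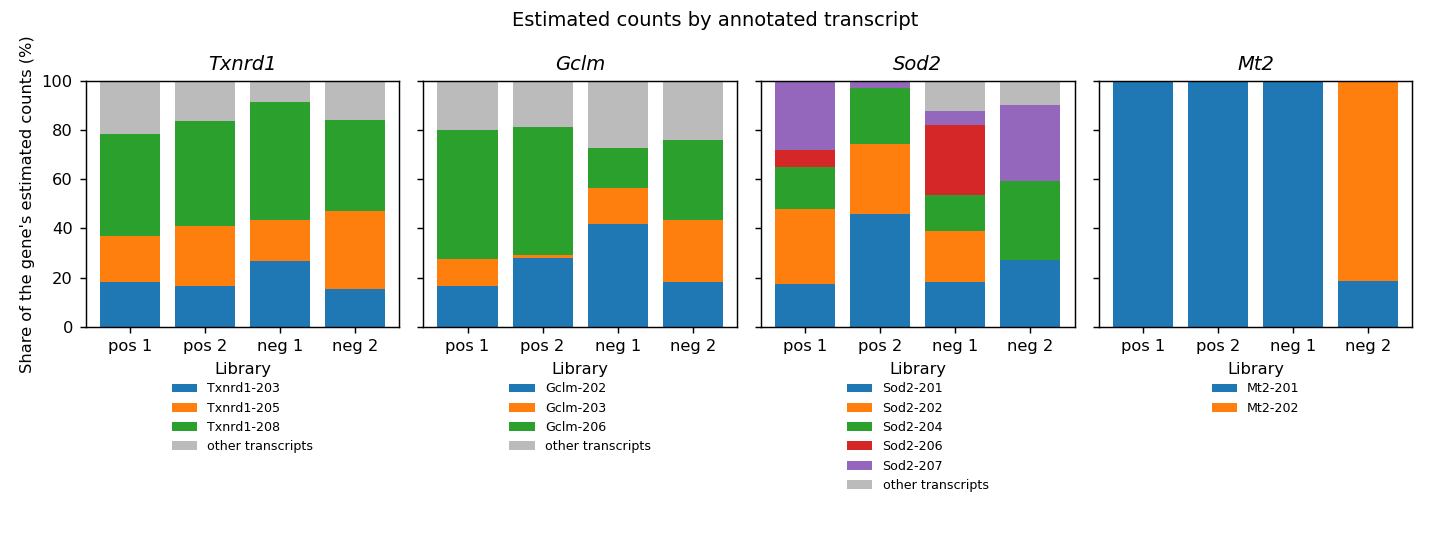
Share of each gene's estimated counts (%) assigned to its annotated transcripts, in Mmp3-positive replicates 1 and 2 (pos 1, pos 2) and Mmp3-negative replicates 1 and 2 (neg 1, neg 2); transcripts with at least 20% in any library are named. Mt2 lies wholly on Mt2-201 in 3 libraries and by 81.5% on Mt2-202 in Mmp3-negative replicate 2.

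Mt2 shows this most plainly. All of its counts lay on the 511-base transcript Mt2-201 in both Mmp3-positive libraries and in Mmp3-negative replicate 1, while in Mmp3-negative replicate 2 the 388-base Mt2-202 held 81.5%. Its TPM was 232 and 254 in Mmp3-positive and 224 and 422 in Mmp3-negative libraries. The library that stands out in TPM is thus the one with the other transcript, and it does not stand out in CPM. Once effective length entered as an offset, the log2 fold change of Mt2 was -0.58, against -0.35 in the main fit. Gclm was spread over several transcripts. Gclm-206, 1 of its 7 listed transcripts, held 52.6% and 52.2% of its counts in Mmp3-positive and 16.3% and 32.9% in Mmp3-negative libraries. Gclm-202 held 16.4% and 27.8% against 41.8% and 18.2%. These shares are a description with no test. Gclm-202 is annotated as a processed transcript and shared 30.7% of its 31-base words with transcripts of other genes. The 292-base Gclm-207 gave 146 of the 277 TPM of Gclm in Mmp3-positive replicate 1 from 15.5% of its counts.

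Sod2 counts were divided among 5 transcripts with at least 20% in some library. The full coding transcript Sod2-201 held 17.4% and 46.0% in Mmp3-positive and 18.1% and 27.3% in Mmp3-negative libraries. Sod2-202, annotated for nonsense-mediated decay, held 30.7% and 28.5% against 20.8% and 0%, and 49.7% of its words were shared with listed transcripts of other genes. The counts on Sod2-201 were 301 and 413 in Mmp3-positive and 257 and 327 in Mmp3-negative libraries, so much of the gene-level Sod2 value came from transcripts that are not annotated as its full coding form. Txnrd1 was more even in its counts. Its coding transcript Txnrd1-208 held 41.2% and 42.7% in Mmp3-positive and 48.1% and 36.7% in Mmp3-negative libraries, with other coding transcripts of the gene next. The 581-base Txnrd1-203 held between 15.5% and 26.8% of counts but much of the TPM. It gave 306 of 539 and 291 of 554 TPM in Mmp3-positive and 263 of 399 and 353 of 737 TPM in Mmp3-negative libraries. Hmox1, Mt1, Sod3, Nqo1 and Gpx3 rested on a single coding transcript for at least 83.8% of their counts in every library.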

How the data were processed

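RNA-seq of 4 libraries was used. Per the submitters' processing notes, the authors quantified reads with kallisto 0.45.0 on GRCm38, and the deposited tables list 115270 transcripts with their estimated counts, TPM and effective lengths. The sources used here do not give the transcript set, trimming or strand setting. Transcripts were matched by identifier without version to GENCODE M21 (113580 matches, 35580 genes), and the 1690 unmatched ones, with 0.729% to 2.08% of counts, were left out. Estimated counts and TPM were summed per gene and counts were rounded.

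Genes were kept with filterByExpr (minimum count 10), scaled by TMM and tested with edgeR 4.0.16 (R 4.3.3), two-sided, without a covariate, with Benjamini-Hochberg adjustment over all 14185 genes and 2 residual degrees of freedom. A standard error was taken as the fitted log2 fold change divided by the root of its F statistic. The edgeR p-values and intervals used its total degrees of freedom, which add to the residual ones a part drawn from all genes. All p-values and intervals cover the spread between libraries only. The edgeR and DESeq2 fits were tested on simulated data. Alternatives were DESeq2 size factors, no filter, a replicate block for the set number, the Wald test of DESeq2 1.42.0, each library left out, an offset for TPM-weighted effective length, and limma 3.58.1 on log2(TPM + 1), a pseudocount of 1. Tables and plots were made in Python 3.11.15 (pandas 2.3.3, matplotlib 3.10.9).

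The genes, lists and tests were chosen with earlier results of these data known. Besides the 10 genes, up to 4 called genes of each pathway list, otherwise its 3 most abundant tested genes by TPM, were named. Gclc, Atox1, Mtf1, Mt3, Slc30a1, Per1, Zbtb16, Tnf, Sod1, Cat, Lpl, Plin1, Fabp4, Pparg, Adipoq, Lep, Cidec, Adgre1, Mrc1, Cldn5 and Emcn were named after their values were seen. No likeness of pattern was ranked over 4 libraries.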

Additional observations from a re-analysis of the deposited data

How the results depend on the processing

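Of 100 values of the 10 genes under an alternative, 1 was past the threshold, Gpx3 with the DESeq2 Wald test (log2 fold change 0.91, DESeq2 adjusted p = 0.00316), and 9 had the other sign. Gpx3, Sod3, Hmox1, Nfe2l2 and Mt2 kept their sign throughout. With limma on log2(TPM + 1) Gclm was 0.16 and Txnrd1 0.011, and the median of the 10 genes was 0.51, in a fit whose median over all genes was 0.29. With 1 library left out at a time, log2 fold changes ran from -0.20 to 0.13 for Gclm, -0.29 to 0.12 for Txnrd1, -0.67 to 0.32 for Sod2, -0.080 to 0.63 for Nqo1, -0.046 to 0.32 for Mt1, 0.21 to 0.63 for Nfe2l2, 0.058 to 0.48 for Hmox1, 0.31 to 0.90 for Sod3, -0.55 to -0.13 for Mt2, 0.75 to 1.18 for Gpx3 and 0.037 to 0.31 for the median of the 10. Such fits take the spread of the single library that remains from the intact group. Their median over all genes was 0.17 without either Mmp3-negative library. It was -0.056 without Mmp3-positive replicate 1 and -0.025 without Mmp3-positive replicate 2. Over all tested genes, dropping the count filter gave 4 higher and 23 lower, and DESeq2's Wald test 775 higher and 593 lower. The length offset left 1 higher and 0 lower (1183 at edgeR's unadjusted p under 0.05), while limma on log2(TPM + 1) left 0 in each direction (1064 unadjusted). With 1 library left out the calls ranged over 1 to 237 higher genes and 1 to 116 lower ones, with 234 and 98 without Mmp3-negative replicate 1 and 237 and 116 without Mmp3-negative replicate 2. A replicate block for the set number left 1 higher and 4 lower, and 0 of the 10 genes passed. Same-numbered libraries deviated from their group means with a correlation of 0.026 over the tested genes. With 2 libraries a group the deviations of replicate 2 mirror those of replicate 1. This value therefore cannot decide whether the set numbers pair the libraries, and the main fit held no covariate. The cause of the differences among the fits was not tested. With 2 libraries a group, the 95% intervals of 4 of the 10 genes (Hmox1, Gclm, Txnrd1 and Mt1) lie within 2-fold in both directions, and those of the other 6 allow larger changes.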
